A study of Homo sapiens with 18 samples.

Results

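The cells compared here carried a doxycycline-inducible NRF1 lacking exon 7 (NRF1-dE7) in addition to their own NRF1, and the question was which mRNAs differed from those of cells with no transgene while the endogenous factor was still present. The comparison took the 3 libraries named siNT+NRF1-dE7 and the 3 named siNT, 6 of the 18 mRNA-seq libraries of the series, and its members were chosen by these names alone. The siNT cells were HEK293 Flp-In cells (derived from human embryonic kidney, with 1 genomic site into which a transgene can be recombined), given the control siRNA siNT and doxycycline but no NRF1 transgene. The siNT+NRF1-dE7 cells were a stable HEK293 Flp-In cell line carrying 3xFLAG-tagged NRF1 without exon 7, resistant to the NRF1 siRNA, and had the same siNT siRNA and doxycycline. Both groups were labelled as treated with siRNA and doxycycline. The stable line had been selected with hygromycin and expanded from colonies, so a difference between the groups can come from the added protein or from the line itself, and the 2 cannot be told apart within this comparison. Whether the siNT cells were the parental line was not stated in the sources used here. The sources used here differ on the interval from siRNA to doxycycline, which they give as 24 h or 6 h. The other groups used for reference were siNT+NRF1-FL, a stable line with full-length NRF1, and siNRF1 (no transgene), siNRF1+NRF1-FL and siNRF1+NRF1-dE7, in which the endogenous mRNA was lowered with an siRNA against NRF1, with 3 libraries each. Nothing states that the replicates came from separate cultures. The p-values therefore rest on the spread among these libraries, which may be technical.

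NRF1 activates transcription from GC-rich palindromes in promoters, among them those of nuclear genes for mitochondrial respiration, the mitochondrial ribosome, DNA replication and cilia. It binds DNA as a dimer. Exon 7 codes for a stretch that overlaps the DNA-binding domain. In the hg38 genome it lies at chr7:129710374-129710571 on the plus strand, is the seventh of 11 exons of the canonical NRF1 transcript, and has 198 bases, a multiple of 3, so that its loss keeps the reading frame. The 2 primers with which the study removed it are shown because their ends mark the junction of NRF1-dE7.
Reverse primer, minus strand, chr7:129709212-129709233: cctctgcttttgctcttctgtg
Forward primer, plus strand, chr7:129711475-129711492: gttggtacgggggcaaca
The reverse primer starts its reading at the last base of exon 6, which ends at position 129709233, and the forward primer starts at the first base of exon 8, at position 129711475.

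The 6 libraries held between 31.2 M and 42.1 M counts (M, mega), and 17946 of 58825 genes passed the filter on low counts. HEK293 markers summed to 2190 to 2260 CPM (a gene's count relative to its library's total, scaled by edgeR's TMM factors) in siNT and 2430 to 2530 CPM in siNT+NRF1-dE7, with all 9 markers present. The 7 blood markers summed to 7.33 to 9.36 CPM over both groups, with PTPRC, CD3E and HBB below 0.1 CPM on average in each, and the 5 endothelial markers to 0.822 to 1.10 CPM, with PECAM1, CDH5 and TEK below 0.1 CPM. Neuronal markers summed to 29.8 to 32.6 CPM and 33.7 to 34.7 CPM in siNT and siNT+NRF1-dE7, fibroblast markers to 31.1 to 32.9 CPM and 29.4 to 33.5 CPM, and epithelial markers to 253 to 263 CPM and 285 to 289 CPM. The part of these marker levels in the results was not tested, and in bulk RNA fewer cells of a type and less RNA per cell cannot be told apart.

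NRF1 mRNA itself was higher with the transgene. It stood at 31.1, 29.9 and 29.3 CPM in siNT and at 58.7, 59 and 57.9 CPM in siNT+NRF1-dE7, a log2 fold-change of 0.96 (SE 0.0471, adjusted p = 6.04e-12, edgeR's quasi-likelihood test with Benjamini-Hochberg adjustment). The 2 groups did not overlap, which held for 33.8% of all tested genes. Counts of the endogenous and the added mRNA cannot be told apart here, because both fall under 1 gene. In the siNT+NRF1-FL line NRF1 stood at 52.4, 55.8 and 55.2 CPM, and the dE7 line did not differ from it past the threshold (adjusted p = 0.123), the difference being a log2 fold-change of 0.10. With the NRF1 siRNA, NRF1 was at 7.20, 9.25 and 7.71 CPM without a transgene and at 37.3, 37.9 and 39.9 CPM in siNRF1+NRF1-dE7.

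None of 7 genes that the NRF1 siRNA lowered in these cells passed the test when NRF1-dE7 was added. BBS2, a subunit of the BBSome that carries cargo to cilia, was at 41.6, 38.6 and 41.5 CPM in siNT and at 44, 42.9 and 42 CPM in siNT+NRF1-dE7 (log2 fold-change 0.08, adjusted p = 0.196). Without a transgene the NRF1 siRNA lowered BBS2 to 5.29 CPM on average, a log2 fold-change of -2.94. ANKRD26, a protein of the centriole's distal appendages, was at 36.5, 40.1 and 38.4 CPM against 38.9, 41.9 and 43.1 CPM (0.11, adjusted p = 0.118), and its groups overlapped.
YEATS4, a subunit of the TIP60 histone acetyltransferase complex, was at 63.8, 63.8 and 64.4 CPM against 61.7, 58.3 and 59.4 CPM (-0.10, adjusted p = 0.118). POLA2, the accessory subunit of DNA polymerase alpha, was at 73.1, 69.0 and 69.9 CPM against 68.4, 67.8 and 67.2 CPM (-0.06, adjusted p = 0.452). The libraries of YEATS4, POLA2 and BBS2 did not overlap between the groups, which held for 33.8% of all tested genes. The phosphatase gene PUDP (26.0, 24.3 and 25.8 against 25.1, 25 and 25.5 CPM), the succinate dehydrogenase subunit SDHA (238, 229 and 234 against 243, 237 and 231 CPM) and the ciliary kinesin KIF3A (62.3, 59.5 and 56.2 against 54.3, 57.3 and 56.1 CPM) overlapped between the groups, with log2 fold-changes of -0.01, 0.02 and -0.09 that did not pass. By the same edgeR test PUDP was lower in siNT+NRF1-dE7 than in siNT+NRF1-FL (-0.24, adjusted p = 0.00424), and the other targets did not pass. In siNT+NRF1-FL over siNT, PUDP (0.23, adjusted p = 0.0125) and BBS2 (0.16, adjusted p = 0.0156) were higher, and the others did not pass. The siRNA lowered all 7 genes without a transgene, by log2 fold-changes from -0.77 (SDHA) to -2.94 (BBS2), each past the adjusted p threshold. The adjusted p fell just under 0.05 for YEATS4 in a fit of the compared groups alone (0.0491) and for ANKRD26 without siNT+NRF1-dE7 replicate 1 (0.0497), at log2 fold-changes of -0.10 and 0.15. A p above the threshold does not show that a gene's level was the same with and without NRF1-dE7.

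**Figure D1:**
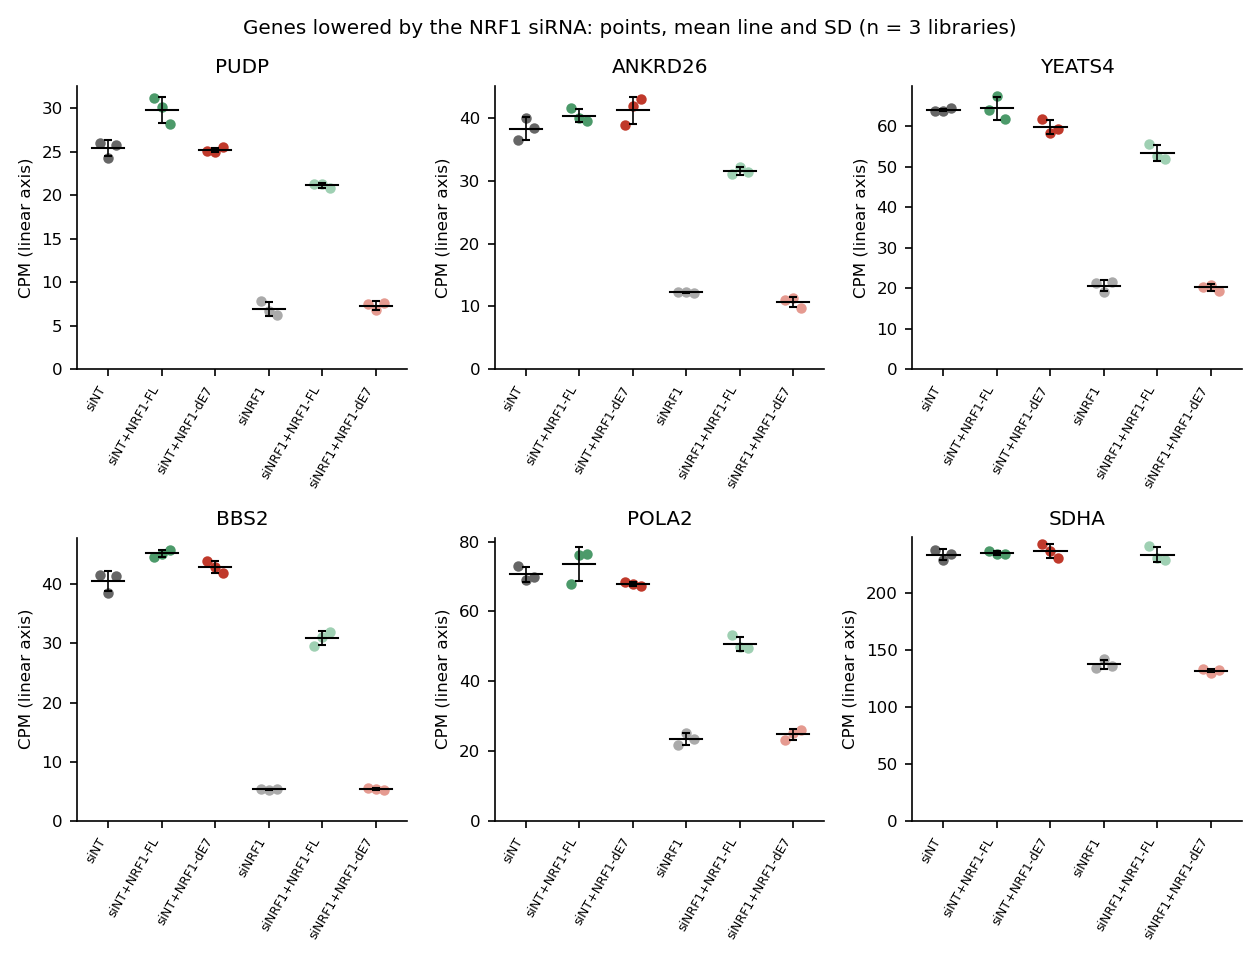
CPM (linear axis from 0) of PUDP, ANKRD26, YEATS4, BBS2, POLA2 and SDHA in the 18 libraries, by group on the horizontal axis; points are libraries, long lines the mean and bars the SD (n = 3). In siNT and siNT+NRF1-dE7 BBS2 stood between 38.6 and 44 CPM, and in siNRF1 its mean was 5.29 CPM.

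Of these 7 genes 6 hold the core NRF1 motif GCGCANGCGC, or its reverse complement GCGCNTGCGC, in the 250 bases before and 50 bases after the start of their canonical transcript. They are shown with the 10 bases on either side because they carry the motif without having passed the test against siNT (motif in capitals, hg38, 5′ to 3′ on the gene's strand).
ANKRD26, chr10:27100520-27100549: gggccttcgtGCGCACGCGCgtggaccttg
SDHA, chr5:218144-218173: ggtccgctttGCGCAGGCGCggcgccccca
PUDP, chrX:7148279-7148308: agcccaaggtGCGCGTGCGCggagcgccac
POLA2, chr11:65261812-65261841: gcccgctgatGCGCACGCGCcctgggccgc
KIF3A, chr5:132737672-132737701: tggcagcattGCGCACGCGCggcctcagtc
YEATS4, chr12:69359662-69359691: cagccgccagGCGCGTGCGCagtgtacact
Among all 62663 promoter windows of this length 3.49% hold the motif, and among those of tested genes 9.86%. A match is a run of letters in this window and not a shown binding site. The 1758 tested genes with the motif had a median log2 fold-change of -0.01 in siNT+NRF1-dE7 against siNT (quartiles -0.09 and 0.05), and the 16073 without it a median of 0.00 (quartiles -0.11 and 0.11). For the NRF1 siRNA without a transgene the medians were -0.18 and 0.03, from libraries that include the same siNT libraries.

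A total of 231 genes were called higher (1.29% of those tested) and 167 lower (0.931%) in siNT+NRF1-dE7, 398 in all or 2.22%. A call required an adjusted p under 0.05 in edgeR's quasi-likelihood test and a log2 fold-change beyond 0.5 in either direction. Without the fold threshold 1546 genes (8.61%) were higher and 1379 (7.68%) lower. The libraries of the 2 groups did not overlap for 382 of the 398 called genes, against 33.8% of all tested genes. The 398 were called from these same libraries, so little overlap is built into their choice. Most called genes were weakly expressed. Of the 398, 265 (66.6%) averaged under 3 CPM and 5 reached 100 CPM. The share called was 7.40% among genes of 1 to 3 CPM and 0.192% among those of 100 CPM or more. The 5 abundant genes, named after their values were seen, were EEF1A2, MDK, COL6A1, LCP1 and CGGBP1. EEF1A2, a translation elongation factor of neurons and muscle, rose from 122 ± 7.08 to 214 ± 9.46 CPM (SD, n = 3) with a log2 fold-change of 0.81 against -0.03 in the siNT+NRF1-FL line. MDK, the growth factor midkine, rose from 108 ± 1.25 to 158 ± 3.76 CPM (SD, n = 3). The CGG-repeat-binding protein gene CGGBP1 fell from 139 ± 3.90 to 96.8 ± 3.20 CPM (SD, n = 3).

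TENM1 changed most among the genes named here. TENM1 is a teneurin, a large transmembrane adhesion protein of neurons, at chrX:124375903-125204312 on the minus strand. It was at 0.724, 0.740 and 0.775 CPM in siNT and at 85.1, 84.5 and 83.9 CPM in siNT+NRF1-dE7, a log2 fold-change of 6.82 (SE 0.0772, adjusted p = 3.14e-25, edgeR's quasi-likelihood test with Benjamini-Hochberg adjustment). The siNT+NRF1-FL line had 1.09, 1.02 and 1.03 CPM, so all 3 dE7 libraries lay far above both other groups. With the NRF1 siRNA, TENM1 was at 0.665, 0.534 and 0.432 CPM without a transgene and at 40.0, 38.6 and 35.9 CPM in siNRF1+NRF1-dE7. Its gene overlaps another tested gene on the opposite strand. LRRN1, which encodes a leucine-rich repeat protein of neurons, was the other called member of the 29 tested neural adhesion genes. It fell from 1.17, 1.08 and 1.00 CPM to 0.772, 0.436 and 0.374 CPM.

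**Figure D2:**
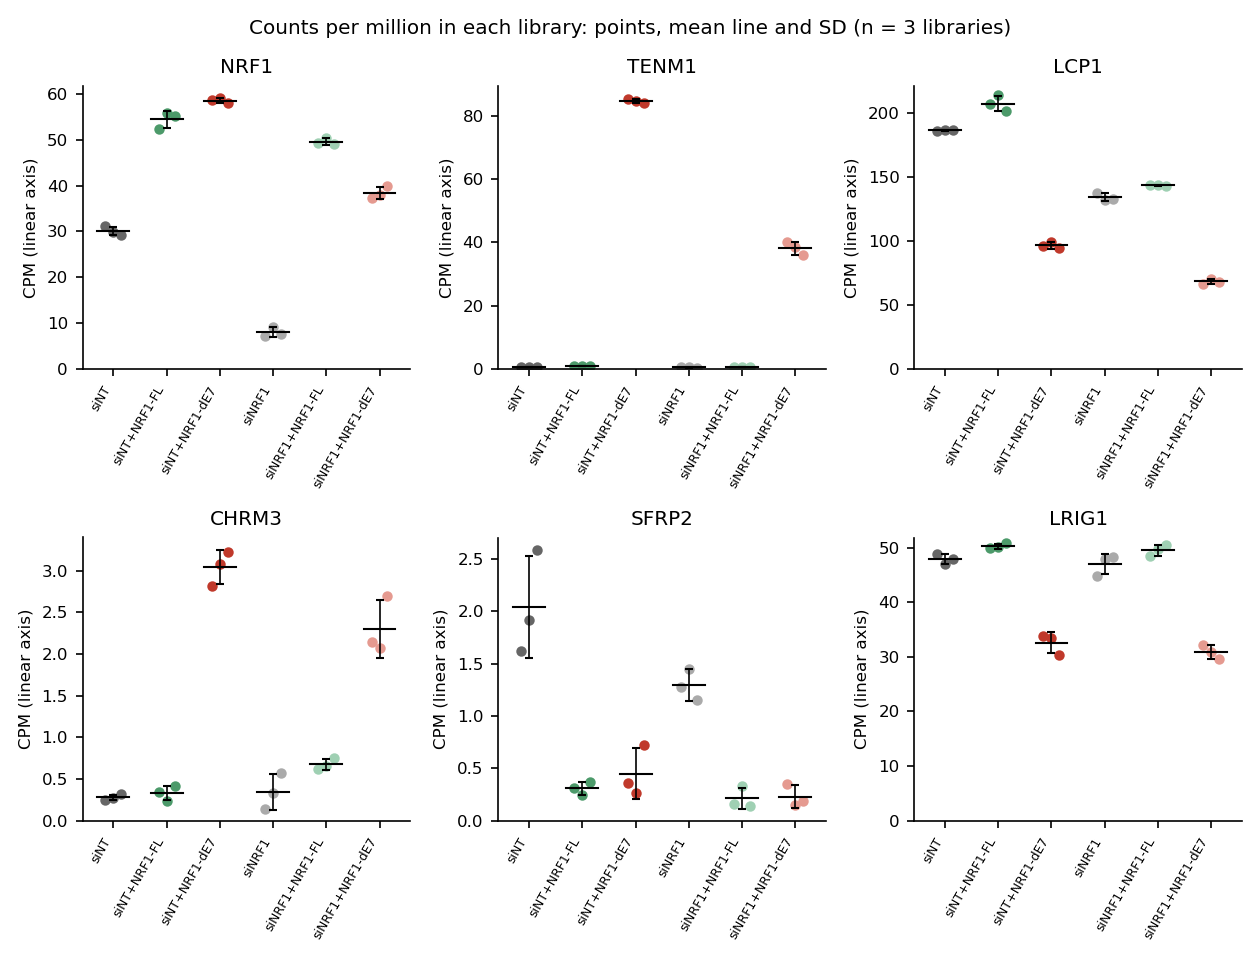
CPM (linear axis from 0) of NRF1, TENM1, LCP1, CHRM3, SFRP2 and LRIG1 in the 18 libraries, by group on the horizontal axis; points are libraries, long lines the mean and bars the SD (n = 3). TENM1 lay at 83.9 to 85.1 CPM in siNT+NRF1-dE7 and at or under 1.09 CPM in siNT and siNT+NRF1-FL.

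Several receptors and adhesion genes that were close to silent in siNT were higher in siNT+NRF1-dE7. CHRM3, the M3 muscarinic acetylcholine receptor, went from 0.25, 0.269 and 0.316 CPM to 2.82, 3.08 and 3.22 CPM (log2 fold-change 3.44, adjusted p = 1.18e-08). AGTR1, the angiotensin II type 1 receptor, went from 0.0499, 0.101 and 0.0861 CPM to 1.22, 1.51 and 1.47 CPM. The groups did not overlap for either receptor.
BCHE, or butyrylcholinesterase, rose from 0.175, 0.303 and 0.373 CPM to 2.35, 2.15 and 2.39 CPM, whereas it stood at 0.0536 to 0.0977 CPM in the siNT+NRF1-FL line. The protocadherins PCDH20 (log2 fold-change 2.68) and PCDH10 (2.01), the bicarbonate transporter SLC4A10 (2.34), the ephrin receptor EPHA5 (2.21), the sulfotransferase SULT1C4 (2.05) and the cytoskeletal filamin FLNC (1.91) rose as well. The other genes among the 15 largest increases were PLIN2 (2.04), the enzyme-like ECHDC3 (1.75), the pseudogene ZNF826P (1.83) and the noncoding RNAs AC023824.1 (3.53) and LINC00632 (1.74). SLC4A10, EPHA5 and AC023824.1 averaged 0.218, 0.234 and 0.119 CPM in siNT and 1.17, 1.11 and 1.47 CPM in siNT+NRF1-dE7. DESeq2, run as an alternative, gave no adjusted p for SLC4A10, EPHA5 or AC023824.1. SULT1C4 and FLNC were also higher in siNT+NRF1-FL than in siNT, as were AGTR1, PCDH20 and PCDH10. The log2 fold-changes were 1.51 for SULT1C4, 2.33 for AGTR1, 1.07 for PCDH20 and 0.885 for PCDH10 (adjusted p = 0.0434). FLNC stood at 2.20 to 2.36 CPM in that line. The siNT+NRF1-dE7 libraries still exceeded the siNT+NRF1-FL libraries for these genes, with adjusted p from 1.27e-07 for PCDH20 to 0.00582 for SULT1C4.

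LCP1 was the most abundant of the genes called lower. LCP1, the actin-bundling protein L-plastin, went from 186, 187 and 187 CPM to 96.4, 99.5 and 94.5 CPM, a log2 fold-change of -0.95 (SE 0.0298, adjusted p = 7.14e-16). It stood at 202 to 214 CPM in siNT+NRF1-FL, so siNT+NRF1-dE7 was the low one of these 3 groups. LCP1 also fell under the NRF1 siRNA, from 138, 132 and 133 CPM to 66.8, 70.8 and 68.5 CPM.
SFRP2, a secreted WNT antagonist, fell from 1.62, 1.92 and 2.58 CPM to 0.356, 0.262 and 0.723 CPM, a log2 fold-change of -2.15. It was at 0.316, 0.241 and 0.366 CPM in siNT+NRF1-FL, and the 2 stable lines did not differ past the threshold (adjusted p = 0.395). The transcription factor SALL3 (-1.71), the fatty acid elongation enzyme HACD4 (-1.53), the hyaluronan-degrading CEMIP (-1.07), the glycosyltransferase GALNT13 (a log2 fold-change of -1) and the collagen gene COL9A2 (-0.99) fell too. In siNT+NRF1-FL over siNT the log2 fold-change was -0.93 for GALNT13, -0.86 for SALL3 and -0.82 for HACD4, and the stable lines did not differ past the threshold for GALNT13 (adjusted p = 0.854) or HACD4 (adjusted p = 0.0609).
Other large decreases were TRIM73 (-1.51), AC009133.6 (-1.52), FO704657.1 (-1.12), LRRN1 (-1.05), AC006058.1 (-0.98), CCDC18-AS1 (-0.97) and PAQR6 (-0.93). TRIM73 has near-identical copies, AC009133.6 overlaps 3 tested genes on its strand and CCDC18-AS1 lies opposite 2 tested genes, so their counts are uncertain. Against siNT+NRF1-FL, siNT+NRF1-dE7 did not differ past the threshold for LRRN1 (adjusted p = 0.857), AC009133.6 (0.943) or AC006058.1 (0.593), which in that line stood at log2 fold-changes of -0.94, -1.44 and -0.76 from siNT. LRRN1 and AC009133.6 lost their call without 1 of the 6 libraries. For LRRN1 the adjusted p was 0.053 without siNT+NRF1-dE7 replicate 2 and 0.0698 without replicate 3, and for AC009133.6 it reached 0.105 without siNT replicate 2 and passed 0.05 also without siNT+NRF1-dE7 replicate 1 (0.0532) or 2 (0.0833), and with DESeq2 (0.0551).
Of 72 called named genes 3 held the NRF1 motif in their promoter window, FO704657.1, MAGI1 and PPP4R2, all of them lower. All 3 lie in stretches of the genome where most tested genes were lower. On chromosome 1 from 0 to 5 Mb (megabases), which holds FO704657.1, 93 of 100 tested genes were below 0. On chromosome 3 from 65 to 75 Mb, which holds MAGI1 and PPP4R2, 25 of 27 were. A part of the motif in these decreases was not tested. The windows of FO704657.1 and MAGI1 are shown with the same marking, as examples of genes that changed and carry the motif.
FO704657.1, chr1:1659239-1659268: ggagcagtttGCGCCTGCGCggaacgcgtg
MAGI1, chr3:66038903-66038932: cggccgcgggGCGCATGCGCgcgcgtctcc
The motif was found for 7 of 230 genes called higher (3.04%) and 10 of 164 called lower (6.10%). Called genes were mostly low in expression, and the share fell with it, from 12.3% of tested genes at 3 CPM or more to 4.18% of those under 3 CPM. Of called genes under 3 CPM 3.05% held it, and of those at 3 CPM or more 6.82% (exact 95% interval 3.16% to 12.5%, counting error only).

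The same line was compared under the NRF1 siRNA in 6 other libraries, siNRF1+NRF1-dE7 against siNRF1. This asks whether the differences recur where the siRNA was given, which without a transgene lowered NRF1 from 30.1 to 8.05 CPM on average. There 235 genes were called higher (1.31%) and 188 lower (1.05%). Of the 231 genes called higher under siNT, 220 (95.2%) had a positive log2 fold-change under siNRF1 and 107 (46.3%) were called higher there, which is 45.5% of all those called higher. Of the 167 called lower, 139 (83.2%) had a negative one and 49 (29.3%) were called, or 26.1% of those called lower under siNRF1. Their median log2 fold-changes were 0.81 under siNT and 0.55 under siNRF1 for the first set, and -0.78 and -0.33 for the second. The first median of each pair was used to choose the sets. Under siNT and siNRF1 the log2 fold-changes were 6.82 and 6.12 for TENM1, 3.44 and 2.72 for CHRM3, 3.03 and 2.61 for BCHE, 2.04 and 1.72 for PLIN2, 0.81 and 0.83 for EEF1A2 and -0.95 and -0.97 for LCP1.

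**Figure D3:**
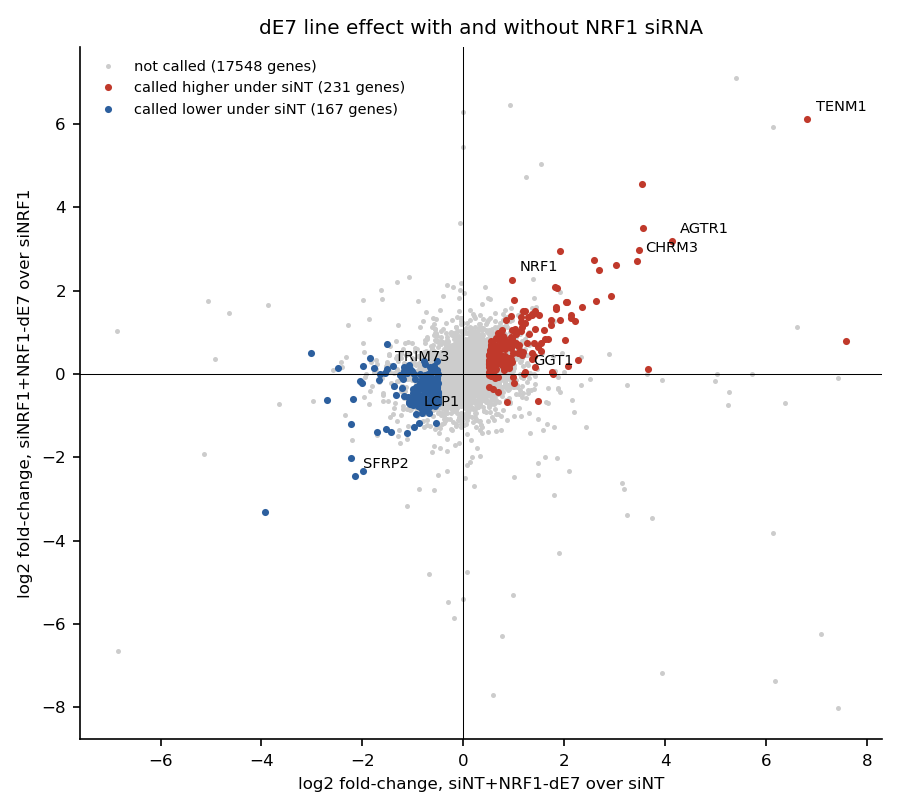
Each point is 1 of the 17946 tested genes, at its log2 fold-change in siNT+NRF1-dE7 over siNT (horizontal) and in siNRF1+NRF1-dE7 over siNRF1 (vertical); 231 red points were called higher and 167 blue points lower under siNT. TENM1, AGTR1 and CHRM3 were high on both axes, and GGT1 and TRIM73 were close to 0 on the vertical axis.

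A test of the difference between the 2 line effects called 28 genes (0.156%), 7 of them among the genes called higher under siNT and 8 among those called lower. This count was 12 without siNRF1+NRF1-dE7 replicate 3, 17 without siNT replicate 3, 43 and 44 without siNRF1 replicates 3 and 2, and 45 without siNRF1+NRF1-dE7 replicate 1. NRF1 had an effect of 0.96 under siNT and 2.26 under siNRF1 (difference -1.31, adjusted p = 6.2e-10). GGT1, a gamma-glutamyltransferase with near-identical copies, went from 3.47, 2.69 and 3.76 CPM to 8.97, 7.67 and 6.55 CPM under siNT and stood at 2.45 to 3.35 CPM in siNRF1+NRF1-dE7 against 1.84 to 3.36 CPM in siNRF1 (difference 1.20, adjusted p = 0.0104). ENPP2, or autotaxin, rose from 10.1, 9.18 and 10.6 CPM to 15.9, 15.6 and 14.8 CPM under siNT, and its effect under siNRF1 was -0.10 (difference 0.73, adjusted p = 0.00331).

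Against the siNT+NRF1-FL line, 189 genes were called higher (1.05%) and 208 lower (1.16%) in siNT+NRF1-dE7. Of the genes called higher against siNT, 88 of 231 (38.1%) were also called higher than in the full-length line, and of those called lower, 47 of 167 (28.1%) were also called lower. Both comparisons use the siNT+NRF1-dE7 libraries, so the 2 counts are not independent. The median log2 fold-change of these genes against siNT+NRF1-FL was 0.49 for those called higher and -0.48 for those called lower. Their median in siNT+NRF1-FL over siNT was 0.30 and -0.31, from comparisons that share the siNT libraries.

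A separate set of genes was taken from siNRF1+NRF1-FL against siNRF1, libraries used nowhere else in the main comparison, after the data had been seen. There 662 genes were called higher (3.69%) and 199 lower (1.11%) in the full-length line. In siNT+NRF1-dE7 against siNT the 662 genes had a median log2 fold-change of 0.03 (quartiles -0.10 and 0.23) beside 0.00 over all genes, and 43 (6.50%, against 1.29% of all tested genes) were called higher and 9 (1.36%, against 0.931%) lower. The 199 genes had a median of -0.08 (quartiles -0.32 and 0.22), with 6 (3.02%) called higher and 19 (9.55%) lower. Both comparisons set a stable line against cells without a transgene, and a part of the line in these shares was not tested.

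The 45 gene lists held 1117 genes, 987 of them tested. Of these, 13 were called higher and 4 lower (1.72%, against 2.22% of all tested genes), and 32 lists had no called member. No member was called among complex I (37 tested, median log2 fold-change -0.03), complexes II and III (14, 0.01), complex IV and cytochrome c (20, -0.01), complex V (16, 0.00), the mitochondrial ribosome (77, -0.01), mitochondrial DNA upkeep (18, -0.03), DNA replication (35, -0.02) or the BBSome and ciliary transport (44, -0.05). Without the fold threshold, where 8.61% of all tested genes were higher and 7.68% lower, 5 genes of the mitochondrial ribosome were higher and 5 lower, 2 of DNA replication were higher and 6 lower, and 1 of the BBSome and ciliary transport was higher and 6 lower. For the NRF1 siRNA without a transgene the medians of complex I and the mitochondrial ribosome were -0.19 and -0.18. Those of complexes II and III, complex IV and cytochrome c, complex V and mitochondrial DNA upkeep were -0.27, -0.1, -0.13 and -0.06. The medians of DNA replication and of the BBSome and ciliary transport were above 0, at 0.08 and 0.34. Of the 20 coactivators and partners of NRF1, only ESRRG was called. It was listed at 0.0250, 0 and 0 CPM in siNT and at 0.238, 0.0581 and 0.150 CPM in siNT+NRF1-dE7, too few counts for a fold-change, and it lost its call without siNT replicate 2 or 3 or siNT+NRF1-dE7 replicate 1 (adjusted p 0.0729, 0.0866 and 0.0999). TFAM, which packages and transcribes mitochondrial DNA, differed by 0.02 (adjusted p = 0.752), and the coactivator PPARGC1A by -0.03 (adjusted p = 0.844). Without the fold threshold 4 of the 20 were higher and 0 lower. Besides ESRRG these were GABPA (0.20, adjusted p = 0.00149), CCND1 (0.19, adjusted p = 0.000331) and MAFG (0.11, adjusted p = 0.0408). GABPA lies on chromosome 21, where most tested genes were higher, and MAFG did not pass without siNT replicate 1 (adjusted p 0.139).

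**Figure D4:**
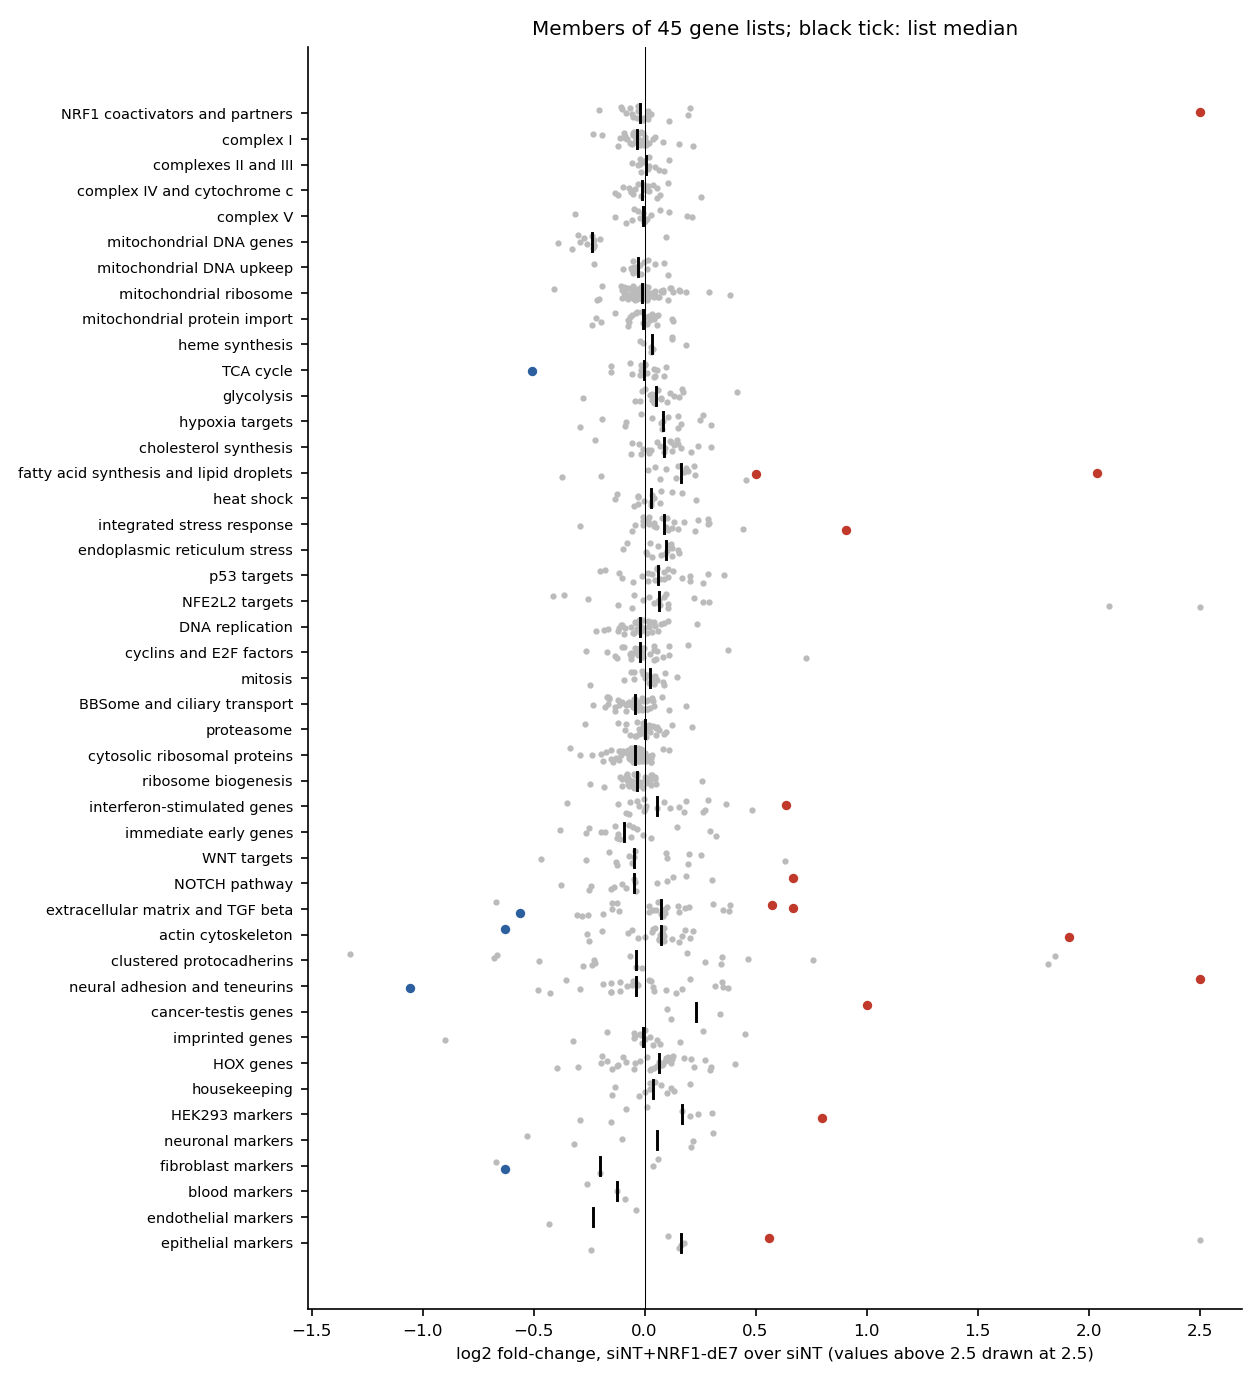
Each point is a tested gene of 1 of the 45 lists, at its log2 fold-change in siNT+NRF1-dE7 over siNT, with values above 2.5 drawn at 2.5; red points were called higher, blue points lower and grey points neither, and black ticks are list medians. The median of the mitochondrial DNA genes stood at -0.24 and that of the fatty acid and lipid droplet genes at 0.16.

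The 13 protein-coding genes of mitochondrial DNA, which code for subunits of the respiratory chain and ATP synthase, held no called gene. Of these 12 had a negative log2 fold-change, 8 of them with an adjusted p under 0.05 (against 7.68% of all tested genes lower at this threshold), and the median was -0.24 beside 0 over all tested genes. MT-CO1, the largest subunit of complex IV, went from 2810 ± 16.9 to 2150 ± 51.3 CPM (SD, n = 3), a log2 fold-change of -0.39 (adjusted p = 0.000157, edgeR's quasi-likelihood test with Benjamini-Hochberg adjustment). MT-CYB fell from 558 ± 4.85 to 445 ± 21.3 CPM (SD, n = 3). MT-ND3 was the exception, with 147 and 157 CPM. The share of all counts from mitochondrial DNA was 0.966% to 0.976% in siNT, 0.768% to 0.816% in siNT+NRF1-dE7 and 0.819% to 0.944% in siNT+NRF1-FL. The median of the 13 genes was -0.16 in siNRF1+NRF1-dE7 over siNRF1 and -0.15 in siNT+NRF1-FL over siNT. Between siNT+NRF1-dE7 and siNT+NRF1-FL only MT-CO1 differed past the threshold (adjusted p = 0.00531), and the others had 0.134 or more. In siNRF1+NRF1-dE7 over siNRF1, MT-CO1, MT-CO3 and MT-ATP8 were lower past the threshold (adjusted p 0.00294, 0.0386 and 0.035) and the others did not pass.

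Of 16 tested genes of fatty acid synthesis and lipid droplets, 10 were higher at an adjusted p under 0.05 (against 8.61% of all tested genes), 0 were lower, and 2 were called (against 2.22%), with a list median of 0.16. PLIN2, which coats lipid droplets, was at 0.524, 0.605 and 0.603 CPM against 1.90, 2.44 and 2.74 CPM, and PLIN3, a related coat protein, went from 26.5, 26.7 and 28.2 CPM to 39.7, 39.5 and 36.4 CPM (log2 fold-change 0.50). CPT1A, which admits fatty acids to mitochondria, and FASN, the fatty acid synthase, both named after their values were seen, were higher by 0.45 and 0.22 on the log2 scale, at adjusted p = 4.22e-07 and 0.00112. In siNRF1+NRF1-dE7 over siNRF1 the list median was -0.05, and FASN was lower (-0.15, adjusted p = 0.0166).
ALDH1L2, a mitochondrial folate enzyme of the stress-response list, rose from 7.84, 8.14 and 8.04 CPM to 15.2, 13.9 and 15.8 CPM, while it was at 3.49 to 4 CPM in siNT+NRF1-FL. The only called TCA cycle gene was SUCLG2, a succinyl-CoA ligase subunit, which fell from 52.8, 51.8 and 54.3 CPM to 36.6, 38.0 and 37.1 CPM.
Other called members were the receptor NOTCH3 (log2 fold-change 0.67), the interferon-induced OAS3 (0.64), the matrix genes SPARC (0.67) and COL6A1 (0.57), the neurofilament NEFM (0.80), the cadherin CDH1 (0.56) and the cancer-testis gene MAGEC2 (1), which rose, and the matrix gene TNC (-0.56) and the actin-binding TAGLN (-0.63), which fell. In siNT+NRF1-FL over siNT the log2 fold-change was 0.82 for SPARC, 0.42 for CDH1, -0.46 for TNC and -0.62 for TAGLN. For these genes siNT+NRF1-dE7 did not differ from that line past the threshold (adjusted p 0.224, 0.434, 0.329 and 0.994). It did for NOTCH3, OAS3, COL6A1, NEFM and MAGEC2 (adjusted p from 2.66e-06 to 0.022). COL6A1 lies on chromosome 21, where most tested genes were higher. MAGEC2 lost its call without siNT replicate 1 or 2 (adjusted p 0.0549 and 0.0575) and without siNT+NRF1-dE7 replicate 2 or 3 (0.0896 and 0.0727), and TAGLN without replicate 1 of siNT (0.0749) or of siNT+NRF1-dE7 (0.0542). TAGLN also lost its call with DESeq2 (0.0667), without the filter on low counts (0.0714) and in a fit of the compared groups alone (0.054), and MAGEC2 without the filter (0.0733).

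Neighbouring genes shifted together in several stretches of the genome. Of 508 windows of 5 Mb (megabases) with at least 10 tested genes, 11 had a median log2 fold-change beyond 0.25, 8 of them below and 3 above. The windows were chosen by these medians, which are therefore a description. In the 6 other libraries, under the NRF1 siRNA, all 11 windows had a median beyond 0.2 in the same direction. Smaller shifts below the 0.25 threshold occurred elsewhere, so genes outside the 11 windows are not free of them. Examples are chromosome 13 from 40 to 45 Mb (median -0.21, 24 of 29 genes below 0) and chromosome 19 from 5 to 10 Mb (-0.19, 77 of 99 below 0). On chromosome 16 from 80 to 85 Mb the median was 0.17, with 30 of 34 genes above 0. DNA copy number was not measured here.
On chromosome 3 the 2 windows from 65 to 75 Mb held 27 tested genes with a median of -0.50, and 25 of them were below 0. Of the 27, 11 were called lower (40.7%, against 0.931% of all tested genes) and 19 were lower at an adjusted p under 0.05. The median of the 27 genes was -0.45 under the NRF1 siRNA and 0.02 in siNT+NRF1-FL over siNT.
UBA3, the catalytic subunit of the NEDD8-activating enzyme, went from 64.6, 64.6 and 63.7 CPM to 44, 44.2 and 44.9 CPM (log2 fold-change -0.54, adjusted p = 3.43e-10). LRIG1, a receptor antagonist, fell from 48.8, 47 and 48 CPM to 33.9, 33.5 and 30.4 CPM, and the scaffold gene MAGI1 from 40.8, 40.3 and 40.2 CPM to 28.4, 29.4 and 27.6 CPM. Neither gene's libraries overlapped between the groups.
SHQ1, an assembly factor of ribonucleoproteins, GPR27, an orphan receptor, and PPP4R2, a phosphatase subunit, fell by log2 fold-changes of 0.54, 0.58 and 0.50, and SUCLG2 lies in the same windows. PPP4R2 overlaps 2 tested genes on its strand, so its count is uncertain. The rest of chromosome 3, with 931 tested genes, had a median of -0.05.

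**Figure D5:**
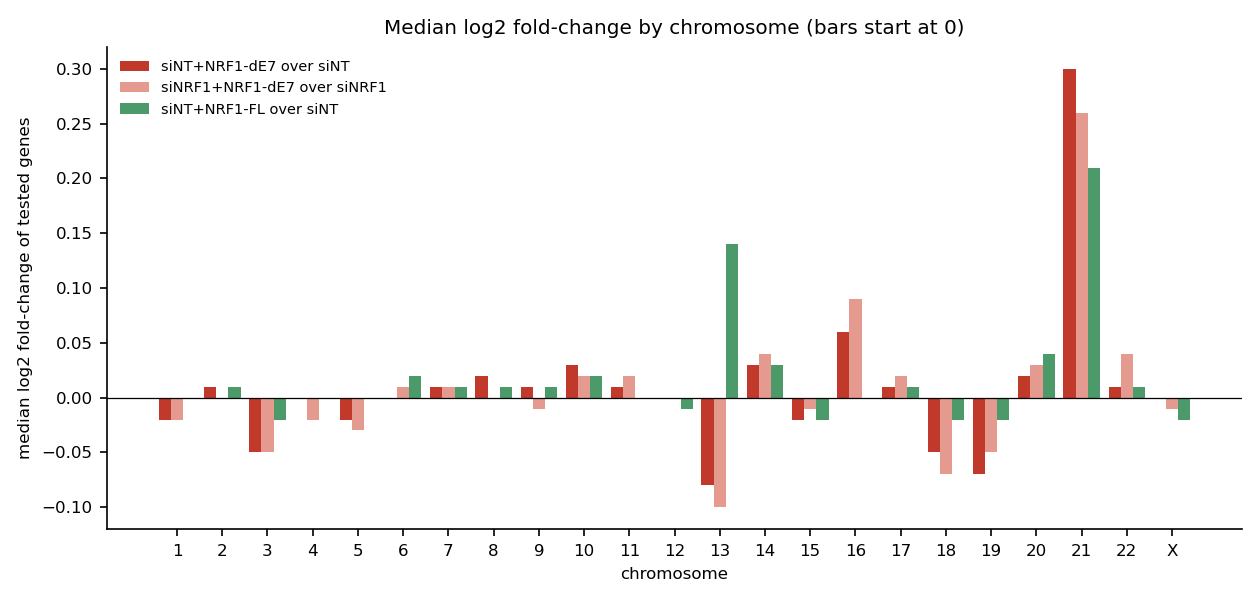
Median log2 fold-change of the tested genes of each chromosome in 3 comparisons, as bars from 0. Chromosome 21 stood at 0.30 in siNT+NRF1-dE7 over siNT, 0.26 under the NRF1 siRNA and 0.21 in siNT+NRF1-FL over siNT, and chromosome 13 at -0.08, -0.10 and 0.14.

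On chromosome 1 the 6 windows (0 to 15, 90 to 95 and 100 to 110 Mb) held 270 tested genes with a median of -0.29, and -0.26 under the NRF1 siRNA. In siNT+NRF1-FL over siNT their median was -0.02. It was -0.14 from 90 to 95 Mb, -0.19 from 100 to 105 Mb and between -0.02 and 0.03 in the other windows. Of the 270 genes, 16 were called lower (5.93%, against 0.931% of all tested genes) and 0 higher, and 163 were lower at an adjusted p under 0.05 (against 7.68% of all tested genes). CCNL2, a cyclin of splicing, went from 80.7, 89.8 and 86.6 CPM to 55.0, 58.3 and 59.7 CPM. MORN1 and the phosphatase CDC14A fell by log2 fold-changes of 0.52 each, SYPL2 by 0.66 and the noncoding LINC02606 by 0.90. AMY2B, an amylase with near-identical copies, went from 1.12, 0.673 and 0.861 CPM to 0.0297, 0.581 and 0.224 CPM, and lost its call without replicate 1 of siNT (adjusted p 0.0893) or replicate 1 or 3 of siNT+NRF1-dE7 (0.093 and 0.0809).
Chromosome 21 as a whole, grouped after its windows were seen, had 213 tested genes with a median of 0.30, of which 190 were above 0 (89.2%, against 49.2% of all tested genes), 14 were called higher and 1 lower (against 1.29% and 0.931% of all tested genes). Its median was 0.26 under the NRF1 siRNA and 0.21 in siNT+NRF1-FL over siNT. C2CD2 was at 1.92, 1.92 and 1.92 CPM in siNT, at 4.25, 4.27 and 4.56 CPM in siNT+NRF1-dE7 and at 6.15 to 6.76 CPM in siNT+NRF1-FL. LRRC3 went from 10.5, 9.15 and 9.30 CPM to 15.6, 16.2 and 14.9 CPM, and the transporter SLC37A1 from 16.9, 15.9 and 17.3 CPM to 23.6, 23.7 and 24.3 CPM. OLIG1, a neural transcription factor (0.58), RIPPLY3 (1.10), B3GALT5 (0.51) with its antisense partner B3GALT5-AS1 (0.68), LINC00649 (1.30) and AP000311.1 (0.73) rose as well. AP000311.1 overlaps 3 tested genes on its strand and lost its call without replicate 1 of siNT (adjusted p 0.0763) or replicate 1 or 2 of siNT+NRF1-dE7 (0.0526 and 0.0766).
Outside the 11 windows and chromosome 21, a choice made after the data were seen, 217 genes were called higher and 139 lower, 2.04% of the 17436 tested there. TENM1 and LCP1 were among these 356 genes. LCP1 nevertheless lies in a stretch where most tested genes were lower, chromosome 13 from 45 to 50 Mb. The 36 tested genes there had a median of -0.18, and 32 of them were below 0. The log2 fold-change of LCP1 itself was -0.95. A part of the shift of this stretch in the LCP1 decrease was not tested.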

How the data were processed

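The deposited table gave estimated counts per gene for the 18 libraries of poly(A) mRNA (stranded kit). According to the submitters' notes and the study's methods, the authors trimmed reads with Cutadapt 1.18 and aligned them to hg38 with STAR 2.7.0f and the GENCODE 30 annotation, and used DESeq2 1.46.0. No source used here names the counting tool or says whether it used strand. Whole numbers made up 91.9% of the deposited counts, and all were rounded. The 18 columns of another experiment matched no sample and were not used. The 45 second rows of genes shared by X and Y held the same values as the first and were left out.

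edgeR 4.0.16 (R 4.3.3) fitted all 18 libraries with a mean per group (12 residual degrees of freedom), TMM factors and filterByExpr with a minimum count of 10, which kept 17946 of 58825 genes. The quasi-likelihood F test with Benjamini-Hochberg adjustment over all of them gave the calls (adjusted p under 0.05, absolute log2 fold-change above 0.5). CPM are from edgeR's cpm function with TMM-scaled library totals. SE is the absolute log2 fold-change over the square root of F. In chi-square tests replicates differed by 2.01 to 3.56 times the sampling variance, so no pair was treated as 1 library deposited more than once. Positions and promoter windows came from GENCODE 44 and the hg38 sequence. Primer sequences came from the study's list.

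Members and lists were chosen with earlier results of these data known. Genes were named by a rule: the NRF1-dependent genes and NRF1 partners, the 15 largest changes each way among called genes of at least 1 CPM without overlap, up to 4 called genes per list and 3 per shifted window, and 5 per direction of the difference between siRNAs. Some items that the rule or a marker list names are not reported here. CGGBP1, MDK and EEF1A2 were added after their values were seen. Fits were tested on simulated data. Alternatives were RLE and upper-quartile scaling, other filters, a replicate block, DESeq2 1.42.0, other thresholds, subsets of libraries and leaving out each library. Figures used matplotlib 3.10.9.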

Additional observations from a re-analysis of the deposited data

Results flagged for a closer look

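The effect of the dE7 line differed between the NRF1 siRNA and siNT for 10 of the named genes by the test of that difference (effect under siNT minus effect under siNRF1, log2) with an adjusted p under 0.05 and a difference beyond 0.5. For 4 other named genes the adjusted p was under 0.05 with a smaller difference, which was 0.31 for ANKRD26, 0.27 for PLIN3, 0.39 for CCND1 and -0.36 for CCNL2. Among the 10 it was 1.20 for GGT1, -1.31 for NRF1, 1.12 for TRIM10, 0.73 for ENPP2, 0.84 for CIRBP-AS1, 0.68 for AC245297.1, -0.91 for AC145207.5, -0.85 for AL133352.1, -0.71 for AC003665.1 and -1.63 for TRIM73. NRF1 means were 30.1 and 58.5 CPM under siNT and 8.05 and 38.4 CPM under siNRF1, without and with the line. TRIM10 went from 1.22 to 1.97 CPM under siNT and from 0.732 to 0.543 CPM under siNRF1, and CIRBP-AS1, which lies opposite another tested gene, from 13.0 to 18.6 CPM and from 7.97 to 6.36 CPM. TRIM73 and GGT1 have near-identical copies and their counts are uncertain. The causes of these differences were not tested.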

How the results depend on the processing

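The counts of called genes stayed within 1.5 times of 231 and 167 under RLE and upper-quartile scaling, other filters, the replicate block (236 and 162), DESeq2 (189 and 115), a fit of the compared groups alone and outside the shifted windows (217 and 139, chosen after seeing the data). DESeq2 gave no adjusted p for 50 of the 398 called genes and shared 296 of its 304 calls with edgeR, and RLE shared 394 of 399. Leaving out 1 library gave 185 to 229 higher and 130 to 154 lower, and 143 to 175 higher and 164 to 185 lower than in siNT+NRF1-FL, where the main counts were 189 and 208. Without the fold threshold the counts were 1546 and 1379 against siNT and 1279 and 1513 against siNT+NRF1-FL, and above 1 they were 75 and 42, and 75 and 73. The count of genes whose effect differed between siRNAs (28) was 172 with no filter, 45 with the replicate block, 13 with DESeq2, 364 without a fold threshold and 6 above 1, and 12 to 45 when 1 library was left out. The cause was not tested except for the thresholds. With the exact palindrome in place of any middle base, the motif shares were 1.96% of all tested genes, 0.87% of those called higher and 2.44% of those called lower, by construction fewer. Of 1280 named-gene values under alternatives, 1236 kept their side of the adjusted p threshold of 0.05, 35 went above it and 9 went below it. A change of direction with an adjusted p under 0.05 in either fit occurred for 0. Changes of direction with neither fit under 0.05 were not counted separately and are among the 1236.

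Same-numbered libraries of the 2 groups had deviations correlated at 0.0411, -0.0370 and 0.0234, so replicate numbers were not taken as pairs. The counting method and strand setting are not known, and depth limits genes under 1 CPM.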
